A study of Homo sapiens with 3 samples.

Results

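The comparison was between CaSki cells that carried NANOG and CaSki cells that carried an empty vector. CaSki is an established human line described in the labels as an epidermoid cervical carcinoma. One group had the retroviral pMSCV empty vector and received an siRNA against GFP (siGFP), which has no human target and served as the control. The other had pMSCV/FLAG-NANOG, which encodes NANOG with a FLAG tag, and received the same siGFP. A group of pMSCV/FLAG-NANOG cells given an siRNA against HDAC1 (siHDAC1) completed the series, and its values are printed beside the others without entering any count. The labels name no promoter, clone, passage or time after transfection. Each group held 1 library of total RNA, 3 in all, of which 2 were compared. Without replicates no test could be run, so the differences below are descriptions of these libraries and carry no error.

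Gene expression was read as FPKM, that is, fragments per unit of transcript length and of mapped fragments. A difference is log2(FPKM + 1) of the NANOG siGFP library minus that of the empty vector siGFP library, so that 1 stands for 2-fold on a scale that understates the change of low genes. Of 23277 gene symbols, 1603 small RNA symbols, 8 genes at exactly 0 in one of the libraries and at 5 FPKM or more in the other, and 10260 genes with a mean under 1 FPKM were left out. The remaining 11406 genes are the ones described. A gene that was low in one library passed this filter through the other, so counts over a list describe the members that passed and are no support for its direction. Where a gene has 3 values, they are in the order empty vector, NANOG and NANOG with siHDAC1.

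NANOG is a homeobox transcription factor that helps to keep embryonic stem cells pluripotent, and it is silent in most differentiated cells. It both activates and represses genes, the latter partly through corepressor complexes that contain the histone deacetylases HDAC1 and HDAC2. Several of the gene groups below answer to well known sensors. The alpha subunits of hypoxia-inducible factor (HIF) are degraded when oxygen is ample, and otherwise the factor switches on glycolysis, angiogenesis and mitophagy genes through a short core element. NRF2, freed from its inhibitor KEAP1 by oxidants, switches on glutathione, thioredoxin, NADPH and iron storage genes through the antioxidant response element.

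The sequences upstream of a few genes of these groups are shown because they hold the core letters of those elements. They are RefSeq promoter windows on GRCh38.p14, cut to the part before the annotated start. The capitals in the next 5 mark ACGTG, a form of the HIF core, on either strand. CACGT is thus the same letters read from the other strand, and CACGTG holds them on both.
CA9: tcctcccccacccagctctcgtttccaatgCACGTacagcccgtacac
PPFIA4: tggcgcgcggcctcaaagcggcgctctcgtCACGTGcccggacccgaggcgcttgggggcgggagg
PLOD2: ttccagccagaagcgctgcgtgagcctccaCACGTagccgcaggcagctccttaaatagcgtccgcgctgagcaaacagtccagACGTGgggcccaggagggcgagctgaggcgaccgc
ENO2: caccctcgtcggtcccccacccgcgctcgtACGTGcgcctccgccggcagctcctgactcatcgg
PGK1: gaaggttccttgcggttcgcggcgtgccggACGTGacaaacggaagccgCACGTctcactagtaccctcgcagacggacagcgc

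These stretches lie at chr9:35673880-35673927 (CA9, plus strand), chr1:203026342-203026407 (PPFIA4, plus), chr3:146161296-146161414 (PLOD2, minus), chr12:6914432-6914496 (ENO2, plus) and chrX:78104016-78104099 (PGK1, plus), each outside and just before its gene. All 5 genes stood lower in the NANOG library. They were chosen from lists that stood mostly lower, among genes whose window held the letters, so this direction followed from the choice. Larger differences came first within each list, though ALDOC (-1.27) was passed over for PGK1 (-1.08). In the next pair the capitals mark TGACNNNGC, the core of the antioxidant response element, which in GCLM reads on the other strand.
TXNRD1: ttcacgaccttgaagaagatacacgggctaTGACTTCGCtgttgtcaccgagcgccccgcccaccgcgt
GCLM: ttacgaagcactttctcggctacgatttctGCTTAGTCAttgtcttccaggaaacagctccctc

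This pair lies at chr12:104215650-104215718 (TXNRD1, plus strand) and chr1:93909431-93909494 (GCLM, minus), and both genes stood higher in the NANOG library. They too were chosen among genes whose window held the letters, from a list that stood mostly higher. Of those genes this pair had the largest differences. Members of the list with larger ones, such as NQO1, were not among those genes. ACGTG was found in the 250 bases before the start of 18.7% of all 27305 windows and TGACNNNGC in 11.03%, each searched on both strands. Of 21 glycolytic genes, 20 had a window, and 8 of these (40%) held ACGTG. The letters GCGTG, which differ from ACGTG in the first base, were found in 6 of the 20 (30%) and in 31.9% of all windows. Among the 9147 kept genes with a window, ACGTG was found in 24.2%, GCGTG in 46.5% and TGACNNNGC in 12.3%. Only 34 of 43 HIF-induced genes (79.1%) and 16 of 24 NRF2 targets (66.7%) had a window, too few for a share over those lists, so the check is void for them. A match describes letters in a window and is not evidence of binding.

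NANOG stood at 0.0357, 298 and 325 FPKM, a difference of 8.17. It was near 0 in the empty vector library and high in both others, as labelled. HDAC1 stood at 19.02, 108 and 12.8 FPKM. It was thus highest in the NANOG siGFP library (difference 2.45) and lower in both others, and the labels give no reason for the high value. Of the other class I deacetylases, HDAC2 stood at 17.7, 17.0 and 17.8 FPKM and HDAC3 at 48.3, 42.2 and 39.2 FPKM. NANOG cannot be separated by these values into vector and endogenous transcript. The other pluripotency factors did not stand higher with it: 5 of 25 listed were kept, and the remaining 4 stood lower, at -0.18 for KLF4, -0.21 for MYC, -0.99 for the zinc finger gene SALL4 and -0.18 for DNMT3B. POU5F1, NANOG's partner in stem cells, was at 0.462, 0.151 and 0.237 FPKM and SOX2 at 0, 0.0289 and 0.0145 FPKM, both under the filter.

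By markers the cells were epithelial. All 11 epithelial markers, KRT5, KRT7, KRT8, KRT18, EPCAM and CDH1 among them, reached 1 FPKM in at least 1 library, and they summed to 6429, 6697 and 5652 FPKM. The 5 fibroblast markers summed to 4.02, 4.75 and 2.73 FPKM, most of it COL1A1, with COL1A2 at 0.0198, 0.948 and 0.00649 FPKM and DCN and LUM at 0 or under 0.02 FPKM. Endothelial markers summed to 0.289, 0.448 and 0.493 FPKM. Among leukocyte markers PTPRC and CD3E were at or near 0, while CD68, a lysosomal gene that epithelial cells can also express, stood at 50.7, 61.2 and 53.5 FPKM. The libraries summed to 660990, 681947 and 600749 FPKM, of which small RNA symbols held 21.2%, 23.1% and 15.99%. FPKM gives no count of fragments, so the depth behind a value is unknown. In bulk RNA, fewer cells of a type and less RNA per cell cannot be told apart.

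Most genes differed little between the 2 libraries. The median difference was -0.01, the middle 50% of genes lay between -0.21 and 0.18, and 5% lay below -0.60 and 5% above 0.51. Above 0 stood 5604 genes (49.1%) and below 0 stood 5802 (50.9%). At least 2-fold higher in the NANOG library were 76 genes (0.666%), and 135 (1.18%) were at least 2-fold lower. At 1.5-fold, a size of 0.58, these became 394 genes (3.45%) and 605 genes (5.3%). The median size of a difference was 0.19 among the 2936 genes of 1 to 5 FPKM and 0.19 among the 796 genes over 100 FPKM, so low genes were not more scattered on this scale. Differences ran with transcript length to a small degree, with Spearman's rho of -0.20 across the 10247 genes with a transcript length, and hardly with GC content (-0.02).

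**Figure D1:**
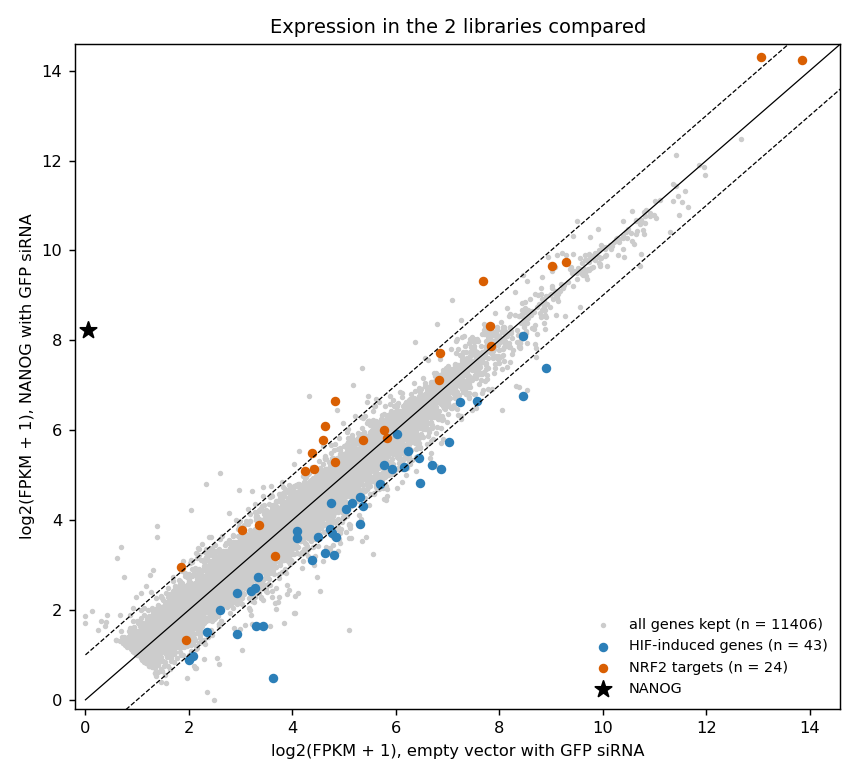
log2(FPKM + 1) of each of 11406 genes in the empty vector library (horizontal axis) and in the NANOG library, both with siGFP (vertical axis); the solid line marks equal values and the dashed lines 2-fold. The 43 HIF-induced genes (blue) all lie under the solid line, 22 of 24 NRF2 targets (orange) lie above it, and NANOG (star) stands alone at the left.

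The largest differences above 0 after NANOG included detoxifying enzymes, secreted matrix proteins and a few developmental regulators. AKR1B10, an aldo-keto reductase that reduces reactive aldehydes, stood at 0.602, 9.48 and 2.62 FPKM (2.71). MMP1, the interstitial collagenase, was at 0.536, 7.86 and 5.51 FPKM (2.53). SPP1, which encodes the secreted phosphoprotein osteopontin, was at 1.60, 13.6 and 7.94 FPKM (2.49). These were low genes in the empty vector library, and each stood above it in both NANOG libraries. The more abundant ones included IGFBP5, an IGF-binding protein, at 39.6, 165 and 144 FPKM (2.03). CYP1B1, a cytochrome P450 that oxidises polycyclic hydrocarbons and estrogens, was at 3.09, 17.8 and 11.2 FPKM (2.20). GPNMB, a lysosomal and surface glycoprotein, was at 4.003, 27.0 and 13.9 FPKM (2.48).

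The largest differences below 0 were led by a hair keratin and by hypoxia genes. KRT34, a type I hair keratin, was at 33.0, 1.95 and 4.22 FPKM (-3.53). CA9, the surface carbonic anhydrase, was at 11.3, 0.389 and 1.05 FPKM (-3.14). PLAT, which encodes tissue plasminogen activator, was at 45.9, 8.52 and 8.75 FPKM (-2.30). In all 3 genes the empty vector library was the high one and the NANOG siGFP library stood below the siHDAC1 library, by little for PLAT. ARNT2, a partner of HIF alpha subunits, was at 15.6, 2.84 and 2.80 FPKM (-2.11). NOG, which encodes the BMP antagonist noggin, was at 15.3, 2.80 and 2.94 FPKM (-2.10). RHOF, a small GTPase that induces filopodia, was at 39.7, 10.6 and 12.03 FPKM (-1.81). Among other genes of this size were MTUS1 at -1.93, C4BPB, a chain of the complement inhibitor C4b-binding protein, at -1.93, C12orf36 at -2.14 and the chloride channel family gene CLIC5 at -1.72.

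**Figure D2:**
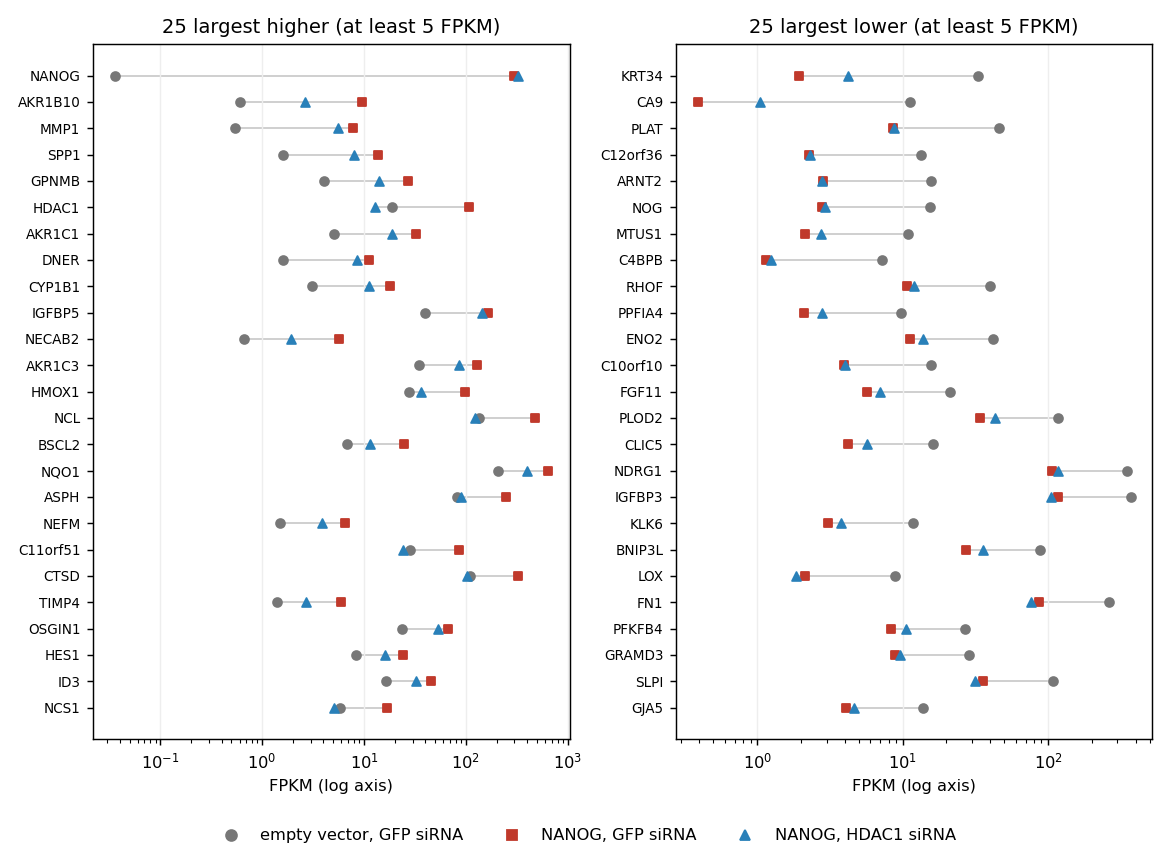
FPKM on a log axis of the 25 genes with the largest difference in each direction among genes of at least 5 FPKM in the higher library; a point stands for 1 library. The empty vector library (grey) lies at the high end for all genes on the right, whereas for HDAC1, NCL, ASPH, CTSD, C11orf51 and NCS1 on the left only the NANOG siGFP library (red) stands apart.

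Nearby values show what the 2-fold threshold separates. Just inside it on the higher side lay DHRS3, a retinal reductase, at 3.17, 7.39 and 5.45 FPKM (1.01), and just outside lay PTHLH, which encodes parathyroid hormone-related protein, at 2.62, 6.24 and 7.16 FPKM (0.999). On the lower side FADS3, of the fatty acid desaturase family, lay inside at 151, 75.2 and 79.1 FPKM (-1.0004), and ZBED2 lay outside at 82.8, 41.1 and 49.0 FPKM (-0.99). Differences on its 2 sides were of nearly the same size.

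Each of the 43 HIF-induced genes that passed the filter, of 46 listed, stood lower in the NANOG library. CA9, RORA (3.03, 0.834 and 1.20 FPKM) and ANGPTL4 (3.24, 0.975 and 0.957 FPKM) passed it through the empty vector library. CA12, SLC2A3 and STC1 did not pass, each under 0.04 FPKM in all 3 libraries. Of them 20 were at least 2-fold and 36 at least 1.5-fold lower, and none was higher by either measure, against 1.18% and 5.3% of all genes. The median was -0.93, beside -0.01 for all genes. PLOD1 was nearest to 0, at -0.09. The list and the direction were known from earlier results of these data, so the count describes the list and does not test it.

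Among pH and mitochondrial genes, BNIP3 and BNIP3L, receptors that mark mitochondria for mitophagy, differed by -1.52 and -1.65. BNIP3 was at 480, 166 and 212 FPKM and BNIP3L at 87.8, 27.2 and 35.7 FPKM. NDRG1, a stress-induced gene, was at 351, 107 and 118 FPKM (-1.70). FAM162A, a mitochondrial gene, was at 103, 36.3 and 41.2 FPKM (-1.48). Empty vector was again the high library in each.

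Collagen-modifying enzymes stood lower too. PLOD2, a lysyl hydroxylase, was at 117, 34.2 and 43.1 FPKM (-1.74), and LOX, the lysyl oxidase that crosslinks collagen and elastin, was at 8.81, 2.12 and 1.86 FPKM (-1.65). The prolyl 4-hydroxylase subunits P4HA1 and P4HA2 differed by -0.71 and -1.06, and ERO1L, an oxidase of disulfide formation, by -1.28. Angiogenic and secreted factors stood lower as well. VEGFA, the main endothelial growth factor, was at 50.9, 27.1 and 32.7 FPKM (-0.89), and ADM, which encodes the vasodilator adrenomedullin, at 188, 99.8 and 116 FPKM (-0.91). ANGPTL4 differed by -1.10.

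Subunits and regulators of HIF differed less than its targets by their median, though not in each gene. The oxygen sensor EGLN1, itself HIF-induced, was at 27.7, 11.3 and 15.1 FPKM (-1.22), and its relative EGLN3 differed by -0.60. HIF1A, the oxygen-regulated subunit, was at 81.4, 63.5 and 76.8 FPKM (-0.35). EPAS1, which encodes HIF-2 alpha, was at 42.8, 24.7 and 25.04 FPKM (-0.77). ARNT, the constant partner, differed by -0.24 and the ubiquitin ligase subunit VHL by -0.19. Among 11 kept subunits and regulators, without EGLN1 and EGLN3, 10 stood below 0, with a median of -0.28, beside -0.93 for HIF-induced genes. Of them 1 was 2-fold lower (1.18% of all genes), which was ARNT2 at -2.11.

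Of the 21 glycolytic and lactate transport genes, all kept, 17 stood lower and 4 higher, with a median of -0.72. At least 2-fold lower were 3 and none was 2-fold higher, against 1.18% and 0.666% of all genes. At 1.5-fold, 11 were lower and 1 higher, against 5.3% and 3.45% of all genes. Isozymes differed among themselves. ENO2, the neuronal enolase, was at 41.7, 11.3 and 13.7 FPKM (-1.79), whereas ENO1 was at 2940, 2157 and 2189 FPKM (-0.45). ALDOC was at 68.5, 27.8 and 21.1 FPKM (-1.27), whereas ALDOA was at 1336, 1037 and 979 FPKM (-0.36). Among abundant enzymes PGK1, the first ATP-yielding step, was at 1695, 802 and 837 FPKM (-1.08), and LDHA, which makes lactate, at 2524, 1369 and 1377 FPKM (-0.88). GAPDH differed by only -0.20. SLC16A3, the lactate exporter MCT4, was at 191, 101 and 130 FPKM (-0.92), while SLC16A1, which encodes MCT1, differed by 0.06. LDHB, the isoform that favours lactate use, stood on the other side at 68.7, 106 and 90.5 FPKM (0.62). Levels of different genes are compared here per transcript length only.

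**Figure D3:**
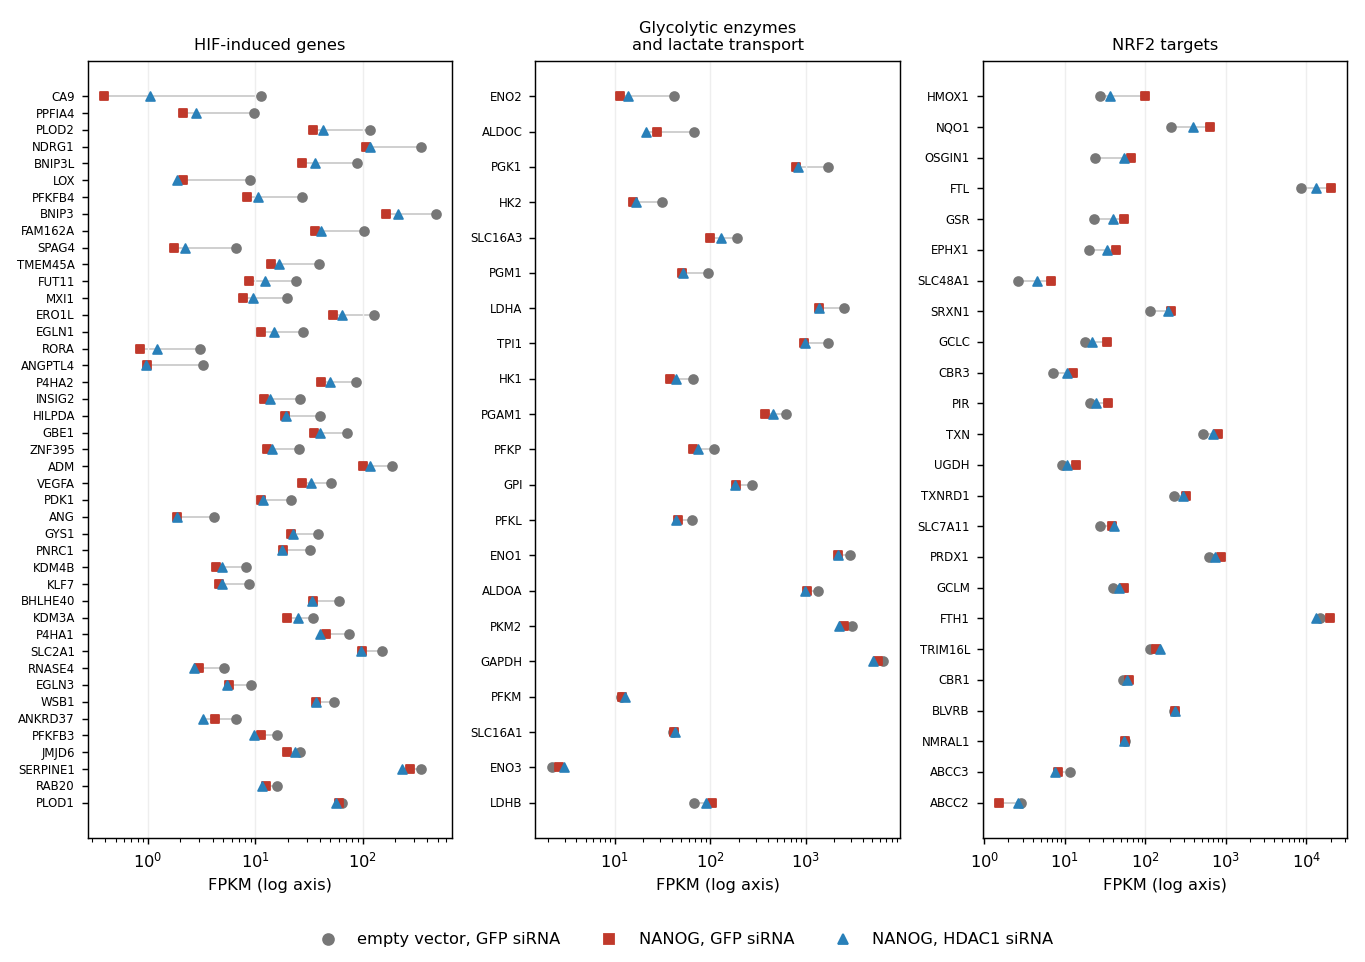
FPKM on a log axis of each kept HIF-induced gene (left), glycolytic or lactate transport gene (middle) and NRF2 target (right), ordered by the difference between NANOG (red) and empty vector (grey), both with siGFP; the NANOG siHDAC1 library is blue. Red lies left of grey for all 43 genes on the left and 17 of 21 in the middle, and right of grey for 22 of 24 on the right.

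The pentose phosphate pathway, which branches from glycolysis and supplies NADPH, did not share this direction. Its list also holds the NADPH enzymes ME1, IDH1 and IDH2. Of the list's 10 genes 7 stood above 0 and 2 at least 1.5-fold higher, against 49.1% and 3.45% of all genes. The list's median was 0.23. TALDO1, the transaldolase, was at 239, 391 and 304 FPKM (0.70).

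NRF2 targets stood higher as a group: 22 of the 24 kept (of 26 listed) lay above 0, 7 were at least 2-fold and 12 at least 1.5-fold higher, none was 2-fold lower, and the median was 0.58. The background was 0.666% at 2-fold higher and 3.45% at 1.5-fold higher. NQO1, the quinone reductase, was at 205, 639 and 394 FPKM (1.63). OSGIN1, an oxidative stress growth inhibitor, was at 23.9, 67.2 and 53.8 FPKM (1.46). GSR, which restores glutathione, was at 23.1, 53.8 and 39.2 FPKM (1.18), and EPHX1, the microsomal epoxide hydrolase, at 19.7, 43.8 and 33.0 FPKM (1.11). The siHDAC1 library lay between the others in these 4 genes. Glutathione synthesis genes differed less, with GCLC at 0.86 and GCLM at 0.43, as did the thioredoxin genes TXN at 0.62 and TXNRD1 at 0.51. The exceptions were the efflux pumps ABCC2 (-0.61) and ABCC3 (-0.46). The difference of the regulator was small: NFE2L2, which encodes NRF2, was at 54.2, 59.3 and 65.9 FPKM (0.13).

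Heme and iron genes include the very abundant ferritins. FTL, the ferritin light chain, stood at 8470, 20074 and 13087 FPKM (1.24), and FTH1, the heavy chain, differed by 0.40. HMOX1, which breaks down heme, was at 27.4, 99.1 and 36.6 FPKM (1.82), and the siHDAC1 library was close to empty vector. Ferritin genes have many processed copies, so their values are uncertain. SLC48A1, a heme transporter, was at 2.61, 6.70 and 4.49 FPKM (1.10). The transferrin receptor TFRC, which takes iron up, differed by -0.35, and LCN2, a siderophore-binding lipocalin, was at 419, 196 and 213 FPKM (-1.09). In all, 12 of 18 kept iron and heme genes lay above 0 with a median of 0.02.

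Of 12 aldo-keto reductases 6 were kept, and 3 of these were at least 2-fold higher, against 0.666% of all genes, with a median of 1.11. AKR1C1 was at 5.10, 32.1 and 18.7 FPKM (2.44) and AKR1C3, which reduces steroids and prostaglandins, at 34.8, 127 and 85.6 FPKM (1.84). AKR1C2, nearly identical to AKR1C1, was at 0.101, 0.468 and 0.224 FPKM, so the split of fragments between this pair is uncertain. AKR1A1 (0.33), AKR1B1 (0.37) and AKR7A2 (-0.03) differed little. Of the aryl hydrocarbon receptor axis, 8 genes were kept and 2 were 2-fold higher, against 0.666% of all genes. They were CYP1B1 and the glucuronidation enzyme UGT1A6, the latter at 3.39, 8.57 and 7.44 FPKM (1.12). The receptor AHR differed by -0.25, its repressor AHRR by -0.31, and the classic target CYP1A1 was at 0, 0.0139 and 0 FPKM.

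Metallothioneins, which bind zinc and copper, stood higher with their zinc exporter. The list of 13 genes also holds the exporter SLC30A1 and the factor MTF1. Of 6 kept, 5 were at least 1.5-fold and 3, SLC30A1 among them, at least 2-fold higher, against 3.45% and 0.666% of all genes. The list's median was 0.96. MT2A, the most abundant, was at 2716, 4450 and 4455 FPKM (0.71), and MT1E was at 93.3, 193 and 209 FPKM (1.04). SLC30A1, the exporter, was at 3.50, 9.46 and 8.63 FPKM (1.22). MTF1, the zinc-sensing factor of these genes, differed by less than 0.01 in size at 4.78, 4.76 and 4.997 FPKM. Metallothionein copies are similar in sequence, and their values are uncertain. Heat shock proteins were above 0 in 17 of 18 kept genes with a median of 0.23. DNAJB4 passed 2-fold at 11.1, 26.2 and 19.8 FPKM (1.17), HSPH1 was at 39.1, 77.7 and 50.98 FPKM (0.97), and their factor HSF1 was the exception at -0.15.

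Lipid synthesis genes stood mostly lower. Among 24 cholesterol genes 20 lay below 0, 7 of them at least 1.5-fold and 2 at least 2-fold lower, none was 1.5-fold higher, and the median was -0.34. Among all genes 5.3% were 1.5-fold and 1.18% were 2-fold lower. INSIG1, which holds back the activation of SREBP factors, was at 116, 51.3 and 53.8 FPKM (-1.16). Of 15 kept fatty acid genes 13 lay below 0, 3 of them 2-fold lower, with a median of -0.45. SCD, the stearoyl-CoA desaturase, was at 318, 126 and 76.4 FPKM (-1.33). SREBF1, the master factor of this pathway, was at 55.3, 26.1 and 27.2 FPKM (-1.05). FASN, the fatty acid synthase, differed by -0.81. On the side of fat breakdown, CPT1A, which brings fatty acids into mitochondria, stood at 1.41, 4.26 and 4.41 FPKM (1.12), a gene chosen after its value was seen.

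The amino acid response that ATF4 drives was also lower, in 23 of 29 kept genes (33 listed), with 6 at least 2-fold and 14 at least 1.5-fold lower, against 1.18% and 5.3% of all genes, none 2-fold higher, and a median of -0.55. VLDLR, a lipoprotein receptor, was at 33.9, 11.1 and 18.8 FPKM (-1.53). DDIT4, an inhibitor of mTORC1 that hypoxia also induces, was at 333, 123 and 141 FPKM (-1.43). SLC38A2, an amino acid transporter, was at 101, 44.2 and 48.5 FPKM (-1.18). The serine synthesis enzymes PHGDH (-0.72) and PSAT1 (-0.88) and the asparagine synthetase ASNS (-0.91) lay below the list's median. PSPH, also of serine synthesis, lay at 0.11. Of the list 6 genes went the other way, the highest PPP1R15A, which reverses translational arrest, at 153, 268 and 191 FPKM (0.80). Cytosolic tRNA synthetases lay below 0 in 14 of 19 kept genes with a median of -0.33, from -0.65 for TARS to 0.49 for FARSB. The endoplasmic reticulum chaperones divided evenly, 11 above and 11 below 0, with a median of 0.00.

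A group of 4 interferon genes, chosen after their values were seen, stood higher in the NANOG library. IL29, which encodes interferon lambda 1, was at 15.3, 36.9 and 41.8 FPKM (1.22). IL28A and IL28B, which encode lambda 2 and lambda 3, were at 2.69, 7.56 and 5.57 FPKM (1.22) and at 4.23, 11.3 and 9.10 FPKM (1.23). These copies are nearly identical, so the split between them is uncertain. IFNB1, which encodes interferon beta, was at 28.7, 56.0 and 44.0 FPKM (0.94). Empty vector was the lowest library for all 4.

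Genes that interferon induces had smaller differences. Among 46 kept (50 listed) 31 lay above 0, 9 were at least 1.5-fold higher, none was 1.5-fold lower or past 2-fold, and the median was 0.18, where 3.45% of all genes were 1.5-fold higher. ISG15, a ubiquitin-like modifier, was at 489, 922 and 830 FPKM (0.92). The RNA sensor IFIH1 (0.61), which sets off interferon production, and DDX60 (0.79) were past 1.5-fold, and the sensor DDX58 (0.57) was just under it. The antiviral TRIM25 (-0.53) and PARP12 (-0.45) lay at the other end. The receptors and factors showed no common direction, with 10 above and 12 below 0 and a median of -0.01. None was past 1.5-fold, where 3.45% of all genes were higher and 5.3% lower by that measure. STAT2 was at -0.33 and IRF7 at -0.01. MHC class I genes lay above 0 in 10 of 11 kept (18 listed), against 49.1% of all genes. Highest was CALR, the chaperone calreticulin, at 316, 537 and 282 FPKM (0.76). HLA-E, TAP1, TAPBP, PSMB8 and PSMB9 were listed at 0 in all 3 libraries, so the list lacks these core members.

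**Figure D4:**
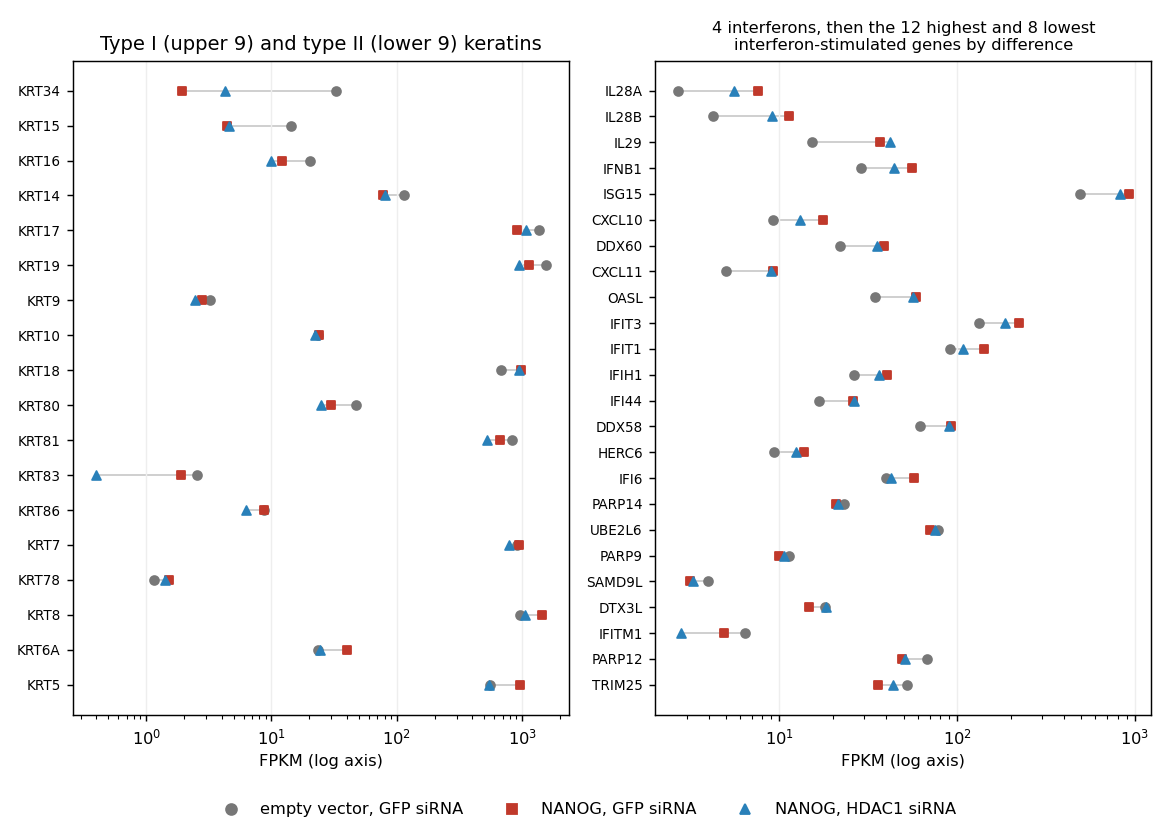
FPKM on a log axis of the 9 kept type I and 9 kept type II keratins (left) and of 4 interferons with the 12 highest and 8 lowest interferon-stimulated genes (right); each point is 1 library. KRT34 and KRT15 have the widest gaps between empty vector (grey) and NANOG (red) among keratins, and the interferons and ISG15 have red to the right of grey.

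Cytokines and complement showed single large differences rather than a shared one. Of 22 kept chemokine and cytokine genes (33 listed), 2 were at least 2-fold lower, 7 at least 1.5-fold lower and 1 higher, with a median of -0.05, where 1.18%, 5.3% and 3.45% of all genes lay so. Those 2 restrain interleukin-1: IL1RN, the receptor antagonist, at 12.1, 3.55 and 3.44 FPKM (-1.53), and IL1R2, the decoy receptor, at 11.9, 4.58 and 9.73 FPKM (-1.21). CXCL1, a neutrophil chemokine, was higher at 8.82, 15.8 and 24.4 FPKM (0.77). Outside the list and chosen after their values were seen, complement C3 was at 8.28, 2.22 and 1.21 FPKM (-1.53) and the acute phase gene SAA1 at 11.8, 3.47 and 3.61 FPKM (-1.51). OSMR, the oncostatin M receptor, was at 100.2, 36.6 and 56.5 FPKM (-1.43). NF-kB genes, none of the 18 past 1.5-fold, had a median of -0.05.

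In BMP and TGF-beta signalling, ligands and antagonists stood lower and inhibitor-of-differentiation targets higher. Of 12 kept ligands and antagonists (27 listed) 10 lay below 0 and 6 were at least 1.5-fold lower, against 50.9% and 5.3% of all genes. Their median was -0.51. INHBA, which encodes the activin A subunit, was at 78.9, 39.5 and 71.8 FPKM (-0.98), and FSTL1 was at 116, 65.0 and 77.6 FPKM (-0.83). NOG, given above, was the one past 2-fold, and BMP4 stood at 0.874, 1.89 and 1.14 FPKM (0.63). The 25 kept receptors, SMADs and targets had a median of 0.01. Among them ID3, a BMP target that blocks basic helix-loop-helix factors, was at 16.5, 45.6 and 32.3 FPKM (1.41), ID1 at 16.3, 27.0 and 13.2 FPKM (0.69) and ID2 at 0.889, 2.36 and 1.49 FPKM (0.83). SMAD7, the inhibitory SMAD, differed by -0.46.

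In the Notch list, 2 of 15 kept genes were at least 2-fold higher and none lower, against 0.666% and 1.18% of all genes. The list had a median of 0.07. DNER, a Notch-binding transmembrane protein, was at 1.59, 11.3 and 8.58 FPKM (2.25), and HES1, the canonical target, at 8.26, 23.9 and 16.1 FPKM (1.43). The receptors NOTCH1 (0.18) and NOTCH2 (-0.32) and the ligand JAG1 (0.26) differed little. IGF-binding proteins went both ways. IGFBP3, the main serum carrier, was at 371, 117 and 105 FPKM (-1.66), against the higher IGFBP5 and against IGFBP6 at 144, 260 and 205 FPKM (0.85). IGFBP2 was at 0.817, 2.70 and 2.22 FPKM (1.03). The whole IGF list of 11 kept genes had a median of 0.12.

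Other growth factor lists had medians near 0 and single members apart. WNT5B, a noncanonical ligand, was at 9.46, 3.91 and 4.22 FPKM (-1.09), and DKK1, a secreted Wnt inhibitor, at 18.4, 9.13 and 9.33 FPKM (-0.93), in a Wnt list with a median of -0.10. FGF11 was at 21.3, 5.66 and 6.96 FPKM (-1.74), and FGFBP1, which releases FGFs from matrix, at 7.49, 2.18 and 1.13 FPKM (-1.42). EPGN, an EGF receptor ligand, was at 3.75, 10.1 and 9.09 FPKM (1.22), while ERRFI1, a feedback inhibitor of that receptor, was at 50.2, 24.9 and 33.9 FPKM (-0.98). YAP and TAZ pathway genes had a more even direction and a median of -0.35. Of 20, 17 lay below 0 and 5 were at least 1.5-fold lower, against 50.9% and 5.3% of all genes. ANKRD1 (-0.75), LATS2 (-0.71) and CRIM1 (-0.68) led the list, and CTGF, a classic target, lay opposite at 0.44.

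Keratins differed by type. Of 9 kept type I keratins 7 lay below 0 with a median of -0.57, and of 9 kept type II keratins 4 lay below 0 with a median of 0.06. KRT15, of basal cells, was at 14.2, 4.43 and 4.57 FPKM (-1.49). KRT14 and KRT17 were both at -0.57. KRT5, the type II partner of KRT14, was on the other side at 555, 959 and 540 FPKM (0.79), with siHDAC1 next to empty vector. The simple epithelial pair KRT8 and KRT18 differed by 0.58 and 0.51, and KRT19 by -0.46. The pairing partners thus did not stand in the same direction for KRT5 and KRT14.

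Squamous differentiation genes included 5 at least 2-fold lower of 19 kept (38 listed) and 1 higher, against 1.18% and 0.666% of all genes, and had a median of -0.19. The protease genes KLK6 (11.8, 3.06 and 3.75 FPKM, -1.65), KLK10 (-1.11) and KLK5 (-1.04), and SLPI, an antiprotease at 108, 35.9 and 31.4 FPKM (-1.56), were 4 of the 5. The cornified envelope gene IVL differed by -0.99, and SPRR1B was higher, at 1.12, 4.16 and 3.36 FPKM (1.29). S100 genes lay below 0 in 10 of 11 kept with a median of -0.43, led by S100A14 at 4.17, 1.65 and 2.11 FPKM (-0.96).

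Adhesion genes stood mostly lower, with the lowest median among integrins. Tight and adherens junction genes lay below 0 in 24 of 27 kept, 1 at least 2-fold lower (1.18% of all genes), with a median of -0.30. That gene was CLDN1, a tight junction claudin, at 8.02, 2.99 and 5.18 FPKM (-1.18). The adherens cadherin CDH1 differed by -0.39 and the tight junction scaffold TJP1 by -0.54. Integrins lay below 0 in 10 of 12 kept, with a median of -0.51. Of them 4 were at least 1.5-fold and 1 at least 2-fold lower, against 5.3% and 1.18% of all genes. ITGB6, an epithelial subunit that activates TGF-beta, was at 29.8, 12.9995 and 12.8 FPKM (-1.14), while ITGA6, of hemidesmosomes, was at 22.4, 33.6 and 41.4 FPKM (0.57). Hemidesmosome and basement membrane genes had a median of -0.25, or -0.12 once the trend with length was removed, as these are long transcripts. Desmosome genes lay below 0 in 8 of 9 kept, led by JUP, the plakoglobin gene, at -0.63.

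Epithelial factors had a median of -0.12 in 18 kept genes. At least 2-fold lower were 2, against 1.18% of all genes. They were the surface mucin MUC1 at 33.8, 13.2 and 15.7 FPKM (-1.29) and the Müllerian duct factor PAX8 at 52.7, 25.2 and 27.2 FPKM (-1.04). The splicing regulators ESRP1 and ESRP2 differed by -0.39 and -0.51. SNAI1, a repressor of CDH1, was at 1.66, 2.81 and 2.28 FPKM (0.52), and ZEB1 was at 0.0963, 0.181 and 0.154 FPKM, under the filter. The mesenchymal genes did not stand on 1 side: VIM, the intermediate filament, was at 26.0, 50.04 and 52.9 FPKM (0.92), and FN1, fibronectin, at 264, 86.9 and 76.5 FPKM (-1.59).

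Matrix-degrading enzymes also divided. Of 16 kept metalloproteinase genes and inhibitors (24 listed), 3 were 2-fold higher (0.666% of all genes), none 2-fold lower, and the median was -0.08. Besides MMP1 they were the collagenase MMP13, at 0.312, 2.31 and 0.878 FPKM (1.34), and the inhibitor TIMP4, at 1.38, 5.90 and 2.72 FPKM (1.53). MMP3, stromelysin 1, was at 4.23, 9.10 and 15.95 FPKM (0.95). The membrane-type enzymes MMP14 (-0.44) and MMP15 (-0.74) lay below 0. In the plasminogen system, the low PLAT stood beside SERPINE2, an inhibitor of PLAT, PLAU and thrombin, at 42.6, 97.3 and 70.3 FPKM (1.17), while PLAU, the urokinase gene, and its receptor PLAUR were at -0.09 and 0.01.

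Among lists of basic cell machinery, respiratory chain, proteasome and ribosome biogenesis genes lay mostly above 0, with small medians. Respiratory chain subunits lay above 0 in 40 of 45, with a median of 0.24 and a range of -0.79 to 0.87. Of them 4 were at least 1.5-fold higher and 1 lower, against 3.45% and 5.3% of all genes. Proteasome subunits did so in 29 of 31, with a median of 0.20, none past 1.5-fold, and a range of -0.15 to 0.46. Ribosome biogenesis genes did so in 27 of 28, with a median of 0.34, and 6 were at least 1.5-fold higher, against 3.45% of all genes. The 2 at least 2-fold higher (0.666% of all genes), NCL and WDR18, were high in the NANOG siGFP library alone. Cytoplasmic ribosomal proteins did not, with 19 of 51 above 0 and a median of -0.04. Transcripts of the respiratory list are short, with a median length of 1769 bases against 3645 for all genes, and its median was 0.21 once the length trend was removed. HOX genes (median 0.24, or 0.14 without the trend) and replication-dependent histones (0.30, or 0.23) shifted more. Within the HOX list, HOXA9 was at 12.4, 23.0 and 18.7 FPKM (0.84) and HOXA4 at 6.595, 3.55 and 4.55 FPKM (-0.74). Copies of histone genes are similar in sequence and uncertain, HIST1H4H, the one past 2-fold, included, at 4.36, 11.3 and 9.38 FPKM (1.20).

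Cell cycle lists had medians near 0. Of 40 kept G1/S genes 1 was 2-fold higher (0.666% of all genes) and the median was 0.05. None of 36 mitosis genes passed 1.5-fold, where 3.45% of all genes were higher and 5.3% lower by that measure. RRM2, the ribonucleotide reductase subunit, was at 54.1, 92.5 and 81.6 FPKM (0.76), and CDK6 at 19.2, 10.9 and 17.2 FPKM (-0.76). The BCL2 family had a median of -0.02. Besides the mitophagy receptors, the apoptosis effector BOK (27.8, 14.3 and 17.4 FPKM, -0.91) and the sensitiser BIK (16.6, 8.52 and 10.2 FPKM, -0.89) were its lowest. p53 targets had a median of 0.10, with the death receptor FAS highest at 10.3, 17.7 and 12.8 FPKM (0.73). In the lysosome and autophagy lists, SQSTM1, an autophagy receptor that NRF2 also induces, was at 352, 696 and 581 FPKM (0.98). Of 12 kept stem cell markers and efflux pumps 9 lay below 0 with a median of -0.35, and the one past 2-fold was ALDH1A3, a retinal dehydrogenase, at 8.64, 19.5 and 13.4 FPKM (1.09). Corepressor and Polycomb genes had a median of -0.13 and BAF complex genes of 0.02.

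Some further genes past 2-fold were chosen after their values were seen. Of the neurofilament genes, which build the cytoskeleton of neurons, NEFL was at 1.24, 4.82 and 3.95 FPKM (1.37) and NEFM at 1.48, 6.44 and 3.85 FPKM (1.58), while the more abundant NEFH was at 81.9, 91.6 and 90.8 FPKM (0.16). ODC1, the entry enzyme of polyamine synthesis, was at 47.9, 103 and 116 FPKM (1.08). On the lower side MB, which encodes the oxygen store myoglobin, was at 4.09, 0.134 and 0.147 FPKM (-2.17). TGM2, a transglutaminase that crosslinks matrix proteins, was at 4.97, 0.734 and 0.960 FPKM (-1.78), and the transcription factor gene NFIB was at 4.79, 0.891 and 1.09 FPKM (-1.61). For these lower genes the empty vector library stood apart from both NANOG libraries.

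**Figure D5:**
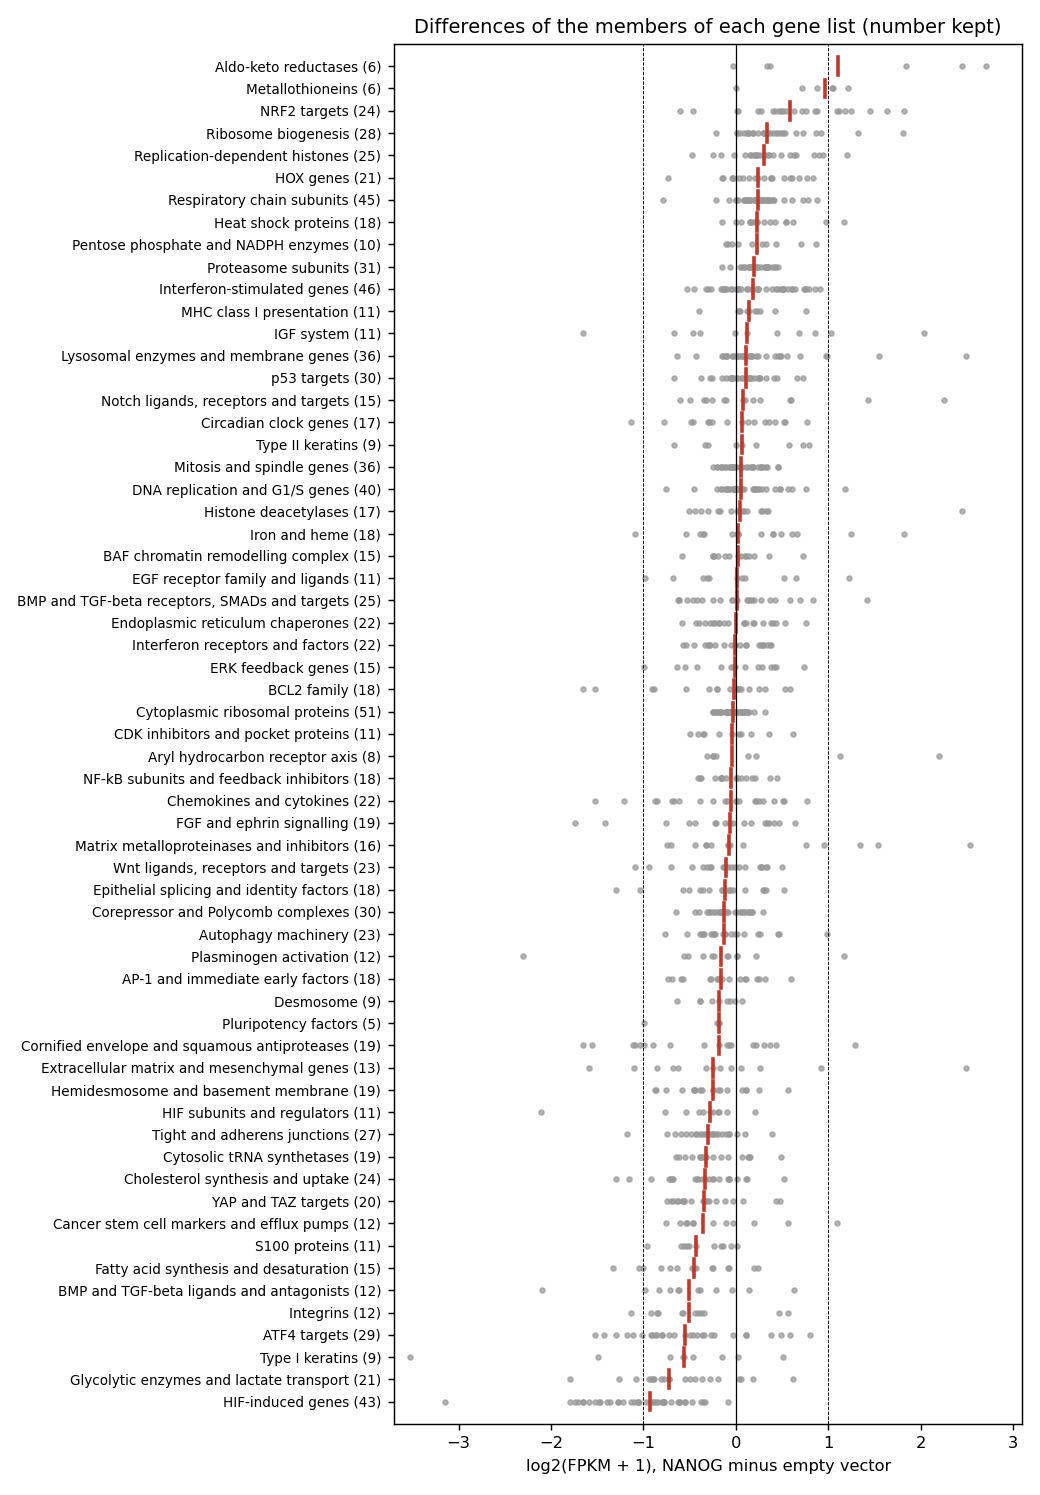
Difference of each kept member (grey point) of 61 gene lists, with the list's median as a red bar, the number kept in brackets and dashed lines at 2-fold; NANOG, at 8.17 in the list of pluripotency factors, lies outside the axis. The lists of aldo-keto reductases, of metallothioneins with SLC30A1 and MTF1, and of NRF2 targets have the highest medians, and that of HIF-induced genes the lowest.

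A set of 19 of the 76 genes stood at least 2-fold above both other libraries in the NANOG siGFP library, and none stood 2-fold below both. HDAC1 was one of them. NCL, which encodes the nucleolar protein nucleolin, was at 135, 474 and 122 FPKM (1.81), CTSD, the lysosomal protease cathepsin D, at 111, 327 and 103 FPKM (1.55), and ASPH at 81.7, 250 and 90.3 FPKM (1.60). In these 3 the empty vector and siHDAC1 libraries were close to each other. The cyclin D1 gene CCND1 was at 30.5, 70.4 and 27.0 FPKM (1.18). PPM1G was at 43.0, 107 and 38.8 FPKM (1.29), SHFM1 at 153, 349 and 151 FPKM (1.19), RPL31 at 720, 1613 and 711 FPKM (1.16) and WDR18 at 9.74, 25.8 and 9.25 FPKM (1.32). AKR1B10 and HMOX1 belong to this set as well. Without the set 57 genes were at least 2-fold higher. Whether these values belong to the NANOG cells or to this 1 library cannot be told apart.

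Of the 8 genes listed at exactly 0 in 1 of the libraries, SMARCA4, an ATPase of the BAF complex, was listed at 0 with empty vector and stood at 19.7 and 21.0 FPKM in the others. HNRNPC, an RNA-binding protein needed by all cells, was at 139, 0 and 134 FPKM, PAK4 at 26.5, 0 and 25.7 FPKM and OBFC2A at 18.2, 0 and 20.01 FPKM. RPL21 was at 781, 0 and 663 FPKM and its near-identical copy RPL21P28 at 18.8, 0 and 84.4 FPKM. Genes that every cell uses are among them, so a 0 here is a listing and gives no fold. SNAR-E was at 7.45, 0 and 0 FPKM, and the remaining gene is not reported here.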

How the data were processed

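Per the labels' protocols, Trizol was used for RNA and a TruSeq stranded total RNA kit turned 2 ug of it into each library. TopHat2, Cufflinks and hg19 were used, per the submitters' processing notes. Versions, annotation and strand handling were not given in the sources used here. Each library came as a table of FPKM by gene symbol, as the authors deposited it. FPKM divides by library size and length, so a few very abundant RNAs lower all other values of a library, and a wrong assignment of fragments passes into the value. There were 3 libraries, grouped by the overexpression and siRNA labels. CaSki cells with empty vector and siHDAC1 were not analysed here.

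From these values, log2 differences were computed with a pseudocount of 1 FPKM and a minimum mean of 1 FPKM, using Python 3.11.15, numpy 2.4.6, pandas 2.3.3 and matplotlib 3.10.9. The steps were tested on simulated data. With 1 library a group there was no test. Counts used 2-fold and 1.5-fold, and the shares over all genes are given for both. Named genes were the 25 largest differences in each direction among genes with at least 5 FPKM, the 12 largest among those with at least 100 FPKM, HDAC1 to HDAC3, up to 6 members of each list, the 5 nearest to either side of the threshold, genes listed at 0 and cell markers, with some further members given for their role. Genes and 61 lists were chosen with earlier results of these data known. Lists share some genes. Transcript length and GC content came from GENCODE release 29, and promoter windows from RefSeq on GRCh38.p14, matched by symbol or a unique older symbol; neither is the build of the values. Some items are not reported here. Alternatives were other pseudocounts, filters, scalings and thresholds, and, chosen after seeing the data, removing the trend with length and leaving out genes high in the NANOG siGFP library alone.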

Additional observations from a re-analysis of the deposited data

How the results depend on the processing

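The counts past 2-fold, 76 higher and 135 lower, became 134 and 220 with a pseudocount of 0.1 FPKM, 394 and 605 at 1.5-fold and 20 and 28 at 3-fold. The pseudocount acts on low genes by construction. The HIF-induced list was at -1.05 by its mean and -0.93 by its median. Under the other filters and scalings the counts stayed within 1.5 times of the main ones, from 55 to 98 higher and from 112 to 185 lower. Of list medians recomputed, 625 lay within 0.1 of the main value and 46 did not, and of single gene differences 2848 did and 233 did not. Scalings put the median of all genes between -0.05 and 0.02. With 1 library a group, neither the spread between cultures nor the depth behind a value is known. No paired analysis was possible because each group held 1 library.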
